A study of Mus musculus with 16 samples.

Results

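ERVK peaks are positions where sperm RNA reads piled up inside copies of ERVK elements, a family of mouse endogenous retroviruses. They were taken from the repeat name, class and family that the authors' annotation gave each peak, with the class LTR and the family ERVK. This rule found 6738 ERVK peaks among 158685 annotated peaks (159135 peaks in all), and 191 of them had a name that begins with IAP (intracisternal A-particle). The other 6547 carried other ERVK names, and a further 4942 peaks lay in LTR elements of other families.

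The RNA came from sperm of 4 males of the Dnmt2-/- C57BL/6 line aged 6 to 8 months, which had been weaned at 4 weeks. Males 1 and 2 were kept on a normal diet (ND) and males 3 and 4 on a high-fat diet (HFD), as the letters in the sample titles give it. Each male gave 2 lists of peaks. The first was of RNA that DNase released from purified sperm DNA (D1 to D4), and the second of free RNA of the aqueous phase (F1 to F4), so the study asked how RNA is divided between DNA and the free pool. All 8 lists share the deletion of Dnmt2, which methylates cytosines of some transfer RNAs and is encoded by Trdmt1, so no comparison here separates the effect of the deletion. Trdmt1 had an exon or UTR peak in 0 of the 8 lists, and peak lists without a control genotype do not check the deletion.

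Long terminal repeats (LTRs) are the identical ends of a retrovirus-like element and carry its promoter, while the part between them, written "-int" or "_I" in the element names, holds the gag and pol genes. Most copies in the genome are solitary LTRs, left when the ends recombine. IAP elements are young, numerous mouse ERVK elements whose copies can still move, and they are silenced by DNA methylation and by the TRIM28 and SETDB1 heterochromatin pathway. Among ERVK peaks, RMER17 and RLTR names mark other rodent repeats, named mostly for their LTRs. Some RLTR names, such as RLTR28, belong to other LTR families and are not counted as ERVK.

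The sequences of ERVK peaks could be read for the 50 peaks (0.742% of all ERVK peaks) that lay wholly in a GENCODE M21 exon or a RefSeq promoter window of GRCm38, the assembly of mm10. They are shown because the RMER17 names, the most frequent group in the lists, share a feature that the rule did not use. Each RMER17 peak below is the one with the highest score percentile of its name among the peaks considered. These were peaks of at most 300 bases whose sequence was not read from a protein-coding transcript, with a chromosome left out. Capitals mark the longest stretch made only of C and T, each sequence being written on the strand that carries it.
RMER17A in Sdccag8 (chr1:176956169-176956358, plus strand, D4): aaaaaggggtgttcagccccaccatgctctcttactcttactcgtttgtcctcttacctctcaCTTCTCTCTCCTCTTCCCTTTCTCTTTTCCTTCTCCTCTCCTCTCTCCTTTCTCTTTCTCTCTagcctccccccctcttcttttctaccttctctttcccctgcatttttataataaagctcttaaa
RMER17A2 in Gm44610 (chr7:66618875-66619064, plus strand, D4): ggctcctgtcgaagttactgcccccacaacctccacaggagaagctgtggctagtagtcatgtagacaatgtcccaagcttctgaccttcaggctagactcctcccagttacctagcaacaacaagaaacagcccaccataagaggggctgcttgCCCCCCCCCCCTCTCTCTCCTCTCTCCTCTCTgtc
RMER17B in AC124316.1 (chr17:87825826-87826004, plus strand, F4): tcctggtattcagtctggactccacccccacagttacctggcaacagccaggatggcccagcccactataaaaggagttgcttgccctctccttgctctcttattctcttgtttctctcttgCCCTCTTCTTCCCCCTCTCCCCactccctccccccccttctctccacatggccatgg
RMER17C in Ablim1 (chr19:57274664-57274842, minus strand, F4): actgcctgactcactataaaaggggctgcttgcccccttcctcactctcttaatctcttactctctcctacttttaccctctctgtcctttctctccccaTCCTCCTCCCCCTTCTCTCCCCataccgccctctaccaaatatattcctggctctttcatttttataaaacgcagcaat
RMER17D in 4930452G13Rik (chr14:79714117-79714295, plus strand, F4): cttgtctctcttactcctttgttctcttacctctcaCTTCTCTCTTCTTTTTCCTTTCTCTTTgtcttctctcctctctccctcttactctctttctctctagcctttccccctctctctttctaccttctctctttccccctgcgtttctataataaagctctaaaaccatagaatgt
In these RMER17 peaks the stretch of C and T ran over 22 to 63 bases, and the hexamer CTCTCT occurred 2 to 8 times in each. Pyrimidines made up 81.1% of the RMER17A peak in Sdccag8 and 83.8% of the RMER17D peak in 4930452G13Rik, against 59.5% of the RMER17A2 peak in Gm44610. The authors' annotation placed the Sdccag8 and Ablim1 peaks in introns and the other 3 between genes. The Ablim1 sequence comes from the RefSeq promoter table and the others from GENCODE transcripts of the genes named.

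The 3 IAP-type peaks with a sequence all came from F1 and are written the same way.
IAP-d-int in Prrg1 (chrX:78517378-78517547, minus strand, F1): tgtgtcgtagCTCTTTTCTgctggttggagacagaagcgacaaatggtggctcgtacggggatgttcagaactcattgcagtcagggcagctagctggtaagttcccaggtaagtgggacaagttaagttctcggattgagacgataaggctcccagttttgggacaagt
IAPEY5_LTR in Gm2011 (chr3:40869723-40869892, plus strand, F1): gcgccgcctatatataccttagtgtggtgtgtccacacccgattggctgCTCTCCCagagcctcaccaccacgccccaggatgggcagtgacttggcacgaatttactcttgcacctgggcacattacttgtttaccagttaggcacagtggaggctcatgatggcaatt
IAPEz-int in Sgip1 (chr4:102882373-102882542, plus strand, F1): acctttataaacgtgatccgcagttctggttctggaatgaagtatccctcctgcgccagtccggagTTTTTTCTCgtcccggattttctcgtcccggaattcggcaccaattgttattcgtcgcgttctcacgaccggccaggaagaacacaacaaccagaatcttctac
Here the longest stretch of C and T was 7 to 9 bases and CTCTCT was found in 0 of 3 on either strand. All 3 were annotated as intronic. The IAPEz-int peak, an internal part, held 14 CG dinucleotides in 170 bases, and the IAP-d-int and IAPEY5_LTR peaks held 6 and 5.

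**Figure D1:**
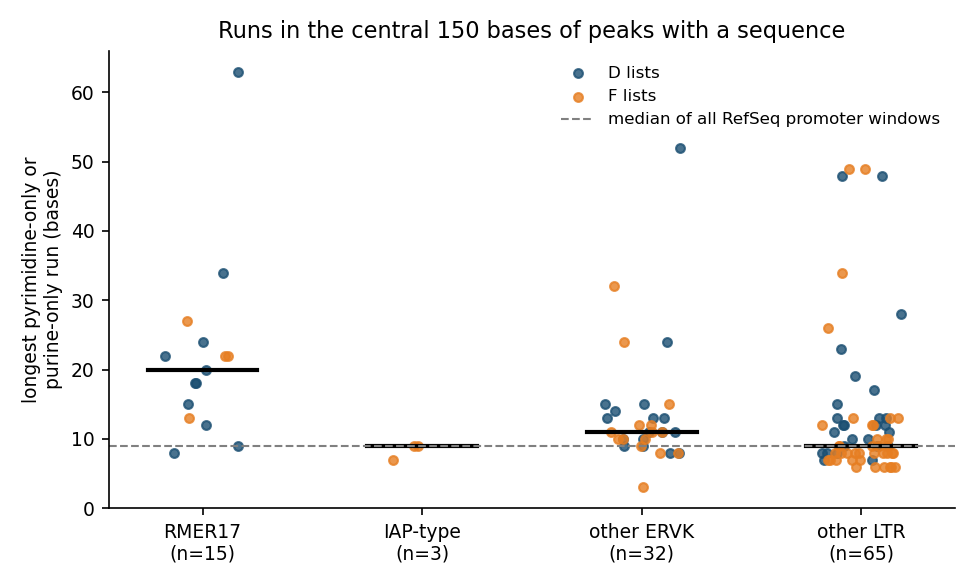
Each point is a peak with a sequence, coloured by fraction, and the height is the longest run of only pyrimidines or only purines in the central 150 bases. Black bars are medians, 20 bases for RMER17, 9 for IAP-type, 11 for the other ERVK names and 9 for other LTR families, and the dashed line is the median of promoter windows, 9 bases.

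Over the central 150 bases of each peak, CTCTCT or its complement was present in 12 of 15 RMER17 peaks (80.0%). It was present in 8 of 32 peaks of the other ERVK names that are not IAP-type (25.0%) and in 14 of 65 peaks of other LTR families (21.5%). In 32807 RefSeq promoter windows cut to the same length the share was 14.5%, and in 1335 intron or intergenic peaks with no repeat name it was 17.0%. The pyrimidine tract is thus common in these 15 of 2928 RMER17 peaks, all from D2, F2, D4 and F4, and uncommon in the reference windows. Long runs of pyrimidines or of purines are not particular to RMER17. Among other LTR families the longest run was 13 to 34 bases in RMER10A peaks, 48 in RMER15 peaks and 49 in RLTR51A_Mm peaks. All these values are descriptions without a test, because peaks inside annotated exons are a small sample, RMER17 was singled out after its values were seen, and a match says nothing of a bound factor. The median longest run was 13 bases in the 28 ERVK peaks of D lists and 11 bases in the 22 of F lists, and the plot of runs shows 13 of the 15 RMER17 peaks, of both fractions, above the promoter median, the exceptions being 2 D2 peaks with runs of 8 and 9 bases.

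All 6738 ERVK peaks lay in introns (1793) or between genes (4945). The annotation gives a repeat name to intron and intergenic peaks and to no other position (0 of 83465 repeat-named peaks lay elsewhere), so ERVK sequence inside exons is not counted. The 8 lists held 3427 to 49918 peaks, with 1 peak width per list from 170 bases (F1) to 400 bases (D2). Scores under 100 were, in each list, whole multiples of 1 step within 0.2 tags, and the step was read as 1 sequence tag. The lowest peak of a list held 6 tags, or 14 in D2. The number of reads behind a list is not in the files, so absence from a list is not absence of RNA. Genes of the epididymal epithelium, a tissue that surrounds stored sperm, had exon or UTR peaks for 28 of 30 in F1 and 17 of 30 in F3, and for 1 (Gpx5) in F4 and 0 in the other lists. Sperm and spermatid genes had them for 10 of 20 in F1, 1 in F2 and 0 elsewhere. With so few genes of any kind carrying such peaks outside F1 (shares below), these counts do not measure how well sperm is marked. Leukocyte genes had such peaks for 4 of 14 in F1, 1 in D3 and 1 in F3. Over all 21428 genes named in the lists the share with such a peak was 28.4% in F1, 4.49% in F3, 1.31% in D2, 0.863% in D3, 0.789% in D4, 0.569% in F4, 0.243% in F2 and 0.215% in D1. F1 therefore stands apart, and results that rest on it are given with and without it. In such bulk samples, fewer cells of a type and less RNA per cell cannot be told apart.

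ERVK peaks made up a similar share of the D and F lists in males 2 and 3, a smaller share of F in male 1 and a larger share of F in male 4. In D the ERVK share of annotated peaks was 3.34% in male 1, 5.76% in male 2, 3.99% in male 3 and 4.13% in male 4. In F it was 0.706%, 5.29%, 3.86% and 5.42% in the same males. The groups overlapped, and F1 was the only F list below all 4 D lists. The mean was 4.30% ± 1.03 (SD, n = 4) in D and 3.82% ± 2.19 (SD, n = 4) in F, a difference of -0.48 percentage points ± 1.62 (SD, n = 4 males). The exact permutation test that flips signs within males, two-sided, gave p = 0.625 (adjusted p = 0.857 over the 8 tests of fraction or diet), and with 4 males its smallest possible p is 0.125. Without male 1 the difference was 0.23 percentage points, and without rRNA, satellite, simple and low-complexity repeats in the base it was -1.38. With introns and intergenic positions as the base, where alone the name can occur, it was 0.12 percentage points and F1 rose to 2.56% (95% Wilson interval 2.22% to 2.96%, counting error only).

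ERVK was the family behind 50.0% or more of the LTR peaks in 6 of the 8 lists, D1 and F1 being the exceptions. The ERVK share of LTR peaks was 44.7%, 63.3%, 53.9% and 57.2% in D1 to D4 and 29.98%, 61.5%, 50.0% and 60.7% in F1 to F4. It was lower in F in 3 of 4 males, and the mean difference was -4.23 points ± 7.66 (SD, n = 4). The exact permutation test by sign flips, two-sided, gave p = 0.375 (adjusted p = 0.857). Without male 1 this difference was -0.73 points, and with the same number of highest-scored peaks taken from every list it was -11.6 points.

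**Figure D2:**
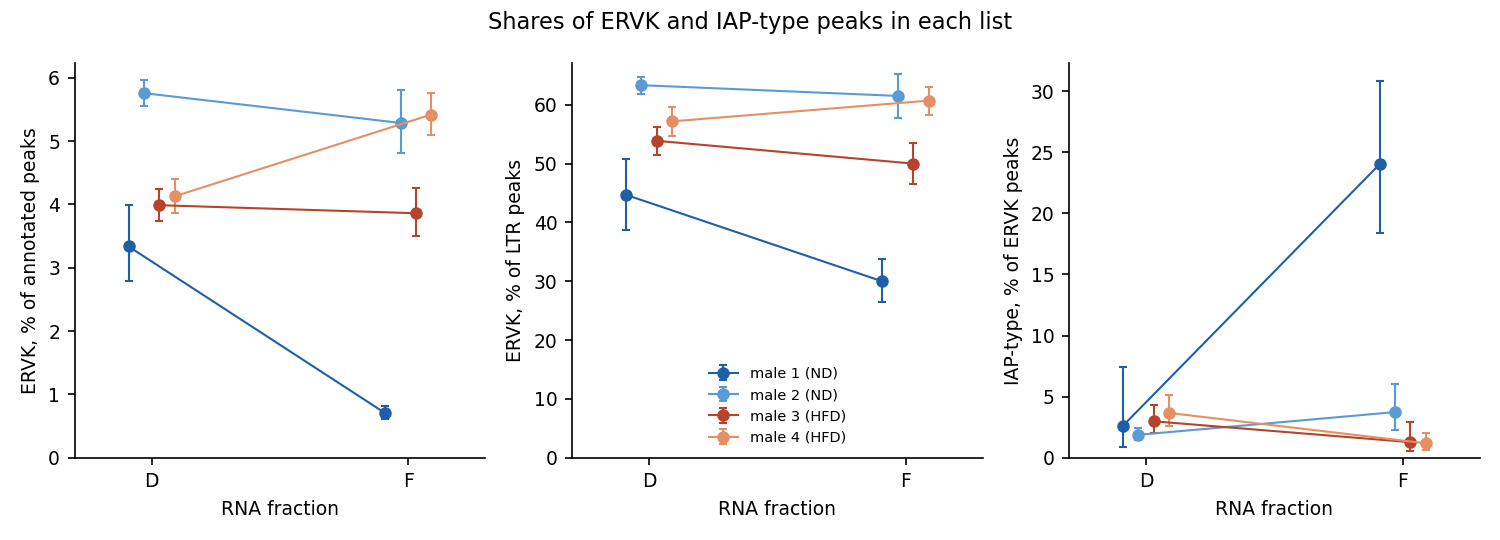
Each line joins the D and F list of 1 male, and bars are 95% Wilson intervals for counting error. The left plot gives the ERVK share of annotated peaks, the middle plot the ERVK share of LTR peaks and the right plot the IAP-type share of ERVK peaks, all in percent. F1 lies lowest in the first 2 plots (0.706% and 29.98%) and highest in the right plot (24.0%).

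Diet was compared within each fraction, 2 males against 2, where the smallest two-sided p is 0.333. In D the HFD males had ERVK shares of 3.99% and 4.13%, lying between the ND values of 3.34% and 5.76% (difference -0.49 points, exact permutation p = 1, adjusted p = 1). In F the HFD shares of 3.86% and 5.42% overlapped the ND shares of 0.706% and 5.29% (difference 1.64 points, exact permutation p = 0.667, adjusted p = 0.857). The F difference turned to -0.65 points without F1, and the D difference turned to 0.72 points without D2.

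The ERVK peaks carried 240 element names, of which 20 occurred in all 8 lists and 39 in a single list. The 12 names with the highest mean share held 50.0% of the ERVK peaks of a list on average. RMER17C led with 12.3% ± 3.80 (SD, n = 8 lists), from 5.59% in F1 to 18.3% in D2, followed by RMER17C2 with 6.28% ± 1.31 (SD, n = 8). RLTR31D_MM held 4.49%, RMER17A 4.06%, RMER17A2 3.70%, RMER17D2 3.52% and RMER17B 3.13% on average. RMER17 names together formed 36.3% of the ERVK peaks, with 23.7%, 52.2%, 37.3% and 39.4% in D1 to D4 and 23.5%, 39.9%, 37.9% and 36.8% in F1 to F4. They were the largest name group in D2, F2, D3, F3, D4 and F4, while RLTR names were larger in D1 (32.5%) and F1 (29.1%). RLTR names averaged 30.7%, other RMER names 15.8%, BGLII 3.14%, MLTR 2.19% and names with ETn, mostly ETnERV internal parts, 0.41%. D2, the longest list with the widest peaks, was also the list richest in RMER17.

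**Figure D3:**
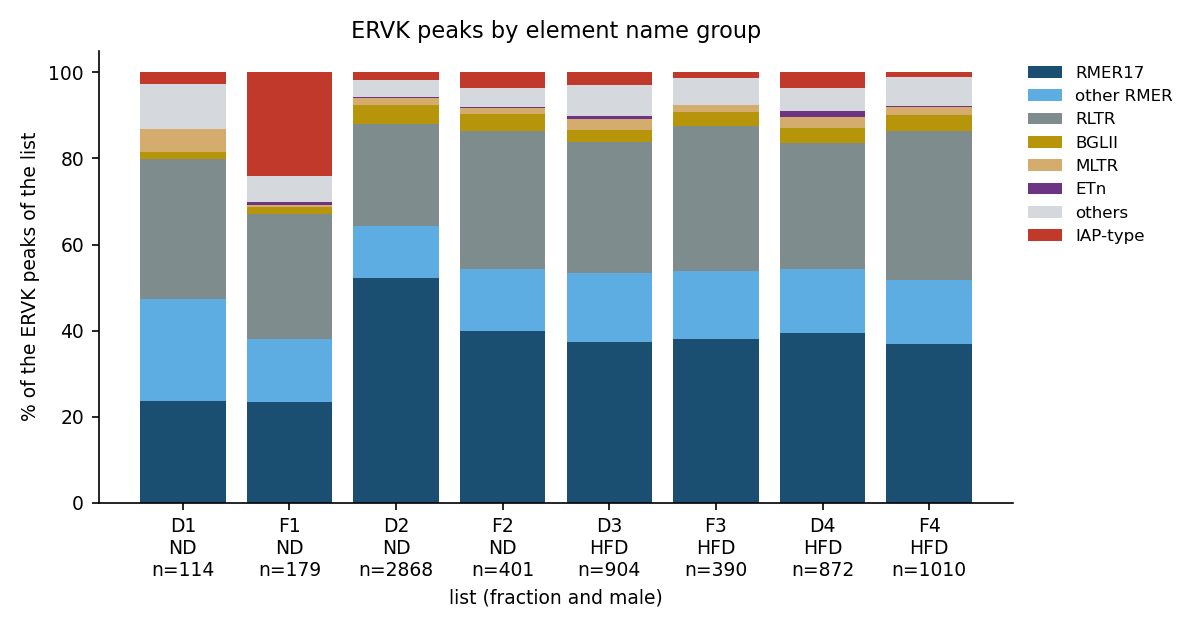
Stacked bars give the percent of the ERVK peaks of each list in 8 groups of element names, with the number of ERVK peaks under each bar. RMER17 takes 23.5% (F1) to 52.2% (D2), and the IAP-type part at the top is 24.0% in F1 and at most 3.74% in the other lists.

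IAP-type peaks were a small part of the ERVK peaks outside F1. They made up 2.63%, 1.88%, 2.99% and 3.67% of the ERVK peaks in D1 to D4 (3, 54, 27 and 32 peaks). In F1 to F4 they made up 24.0%, 3.74%, 1.28% and 1.19% (43, 15, 5 and 12 peaks). The 4 D lists lay within 1.88% to 3.67%, and the F lists ranged on both sides of them. F was higher than D in both ND males and lower in both HFD males, with a mean difference of 4.77 points ± 11.2 (SD, n = 4) and an exact permutation p = 0.75 (two-sided, adjusted p = 0.857). Without male 1 the difference was -0.78 points, with equally long lists 15.5 points and with long terminal repeats alone 0.78 points. In equally long lists, here and below, only 1 to 10 IAP-type peaks per list remained. The IAP share of HFD males exceeded that of ND males by 1.07 points in D (exact permutation p = 0.333, the smallest possible, adjusted p = 0.857). In F it was 12.6 points lower in HFD males (exact permutation p = 0.333, adjusted p = 0.857), and without F1 this difference was -2.51 points. It was -32.2 points with equally long lists and -1.87 with long terminal repeats alone.

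The name behind the F1 value was IAPEz-int, the internal part of the most abundant IAP type. It took 34 of the 179 ERVK peaks of F1 (19.0%), against 0, 31, 5 and 17 peaks in D1 to D4 and 9, 2 and 4 in F2 to F4, which was at most 2.24% of any other list. IAPLTR1_Mm, an LTR of that type, had 4 peaks in F1 and 0 elsewhere. Neighbouring peaks were frequent in F1: 15 of its 43 IAP-type peaks lay in 6 places of 2 or more peaks within 10000 bases. F3 had 1 such place and the remaining lists 0.

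The highest-scored ERVK peak of F1 was an IAPLTR1_Mm peak in intron 6 of Cdk5rap1 (chr2:154354561-154354730, 123 tags), a gene for a tRNA-modifying enzyme of mitochondria with a known IAP insertion. Within the same intron F1 held 2 IAPEz-int peaks as well, and Cdk5rap1 had no exon or UTR peak (0). Another IAPEz-int copy, in intron 2 of Rnf157, a ubiquitin ligase gene, had 3 peaks in F1 and 2 in F3, the lists that also hold peaks of epididymal genes. The first of these Rnf157 positions (chr11:116389721-116389946) held 91 tags in F1 and 40 in F3, and the second (chr11:116390798-116391044) held 43 and 34. No D list had an IAP-type peak in either gene. The part that other cells or library make-up played in the F1 and F3 values was not tested.

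IAP-type intron peaks of F1 seldom lay in genes with peaks in their exons. Of 20 such peaks, 4 had a host gene with an exon or UTR peak in F1 (20%), 3 of them in Rnf157, which had 1 such peak. The peaks are not independent, since 11 of the 20 lay in 4 genes (Cdk5rap1, Kcnh6, Rnf157 and Nrros), and by gene 2 of 13 hosts had an exon or UTR peak. The share was 39 of 70 (55.7%) for the other ERVK names and 63.1% for all 4735 intron peaks of F1. These shares are descriptions of 1 library.

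Internal-part names were more frequent among IAP-type peaks than among other ERVK peaks. The share of internal parts among all genomic copies of each class was not counted. The gap therefore describes the names of the peaks and does not separate RNA from the make-up of the genome. Among IAP-type peaks 66.7%, 90.7%, 74.1% and 87.5% carried an internal-part name in D1 to D4, and 86.0%, 86.7%, 60% and 83.3% in F1 to F4. Among other ERVK names the share was 5.29% to 13.5% over the 8 lists, so the 2 sets of lists did not overlap. Averaged by male the shares were 79.4% ± 9.74 and 8.79% ± 2.81 (SD, n = 4), a difference of 70.6 points in the same direction in each of the 4 males (exact permutation by sign flips, two-sided, p = 0.125, the smallest possible, adjusted p = 0.333 over 8 tests of peak classes). Taken over all ERVK peaks, internal parts made up 14.9%, 6.90%, 10.5% and 11.7% in D1 to D4 and 29.6%, 9.48%, 8.46% and 9.01% in F1 to F4. The difference of F from D was 3.13 points ± 8.06 (SD, n = 4, exact permutation p = 0.75, adjusted p = 0.857), or -0.72 points without male 1 and 17.4 points with equally long lists.

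IAP-type peaks were more often intergenic than other ERVK peaks in 7 of 8 lists, F3 being the exception with 40.0% of 5 peaks against 65.5%. By male the means were 79.7% and 69.9%, a difference of 9.78 points ± 6.77 (SD, n = 4, exact permutation p = 0.25, adjusted p = 0.333). It was 5.44 points with equally long lists and 19.2 with long terminal repeats alone. In F1 the 2 classes were close, with 51.2% and 47.8%.

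The score percentile, the rank of a peak among all peaks of its list, put IAP-type peaks below other ERVK peaks in all 4 D lists and above them in all 4 F lists. The mean percentiles of IAP-type peaks were 33.0, 44.3, 46.8 and 45.2 in D1 to D4, where other ERVK peaks had 49.5, 49.8, 50.7 and 50.8. In F1 to F4 the IAP-type means were 52.7, 56.9, 61.4 and 55.0, and those of other ERVK peaks 32.6, 48.4, 44.6 and 49.8. Averaged over both fractions of a male the difference was 2.38 points ± 2.86 (SD, n = 4, exact permutation p = 0.25, adjusted p = 0.333), and it turned to -2.18 without F1. It became -9.79 with the same number of highest-scored peaks taken from every list, where IAP-type peaks ranked above the others in 2 of the 4 F lists (F3 and F4), and 0.054 with long terminal repeats alone. In tags, the median IAP-type peak of F1 held 26.0 and the median other ERVK peak 16, while in D2 they held 41.9 and 42.8. In the other lists the medians of IAP-type peaks were based on 3 to 32 peaks.

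An ERVK peak was called recurrent when it shared at least 1 base with a peak of another male in either fraction. The shares of recurrent ERVK peaks were 19.3%, 15.4%, 16.6% and 18.8% in D1 to D4, where 23.2%, 18.8%, 23.9% and 22.9% of all annotated peaks were recurrent. In F1 to F4 they were 18.4%, 13.7%, 25.9% and 20.2%, against 7.65%, 14.4%, 27.0% and 18.7% of all annotated peaks. ERVK peaks thus lay below the list as a whole in all 4 D lists and in F2 and F3, and above it in F1 and F4.

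Compared with other LTR peaks, ERVK peaks were recurrent more often in 8 of 8 lists. Other LTR peaks were recurrent in 6.38%, 10.1%, 8.53% and 8.12% in D1 to D4 and in 9.57%, 10.8%, 15.4% and 12.7% in F1 to F4. By male the means were 18.5% ± 2.83 for ERVK and 10.2% ± 1.64 for other LTR peaks (SD, n = 4), a difference of 8.36 points ± 2.91, positive in each of the 4 males (exact permutation by sign flips, two-sided, p = 0.125, the smallest possible, adjusted p = 0.333). The difference fell to 2.79 points without male 2, to 3.56 points with equally long lists and to 3.28 points when at least 0.5 of the length of both peaks had to be shared. Its direction held in each of these. By name group, the mean recurrence over lists was 29.5% for RMER17, 16.8% for other RMER names, 15.4% for BGLII and 14.0% for RLTR. It was 9.05% for IAP-type names, 8.39% for the remaining names, 7.94% for ETn and 3.33% for MLTR.

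IAP-type peaks were recurrent less often than other ERVK peaks in 7 of 8 lists. The shares were 0%, 3.70%, 7.41% and 0% in D1 to D4 and 4.65%, 0%, 40.0% and 16.7% in F1 to F4, from 0 to 2 recurrent peaks per list. Other ERVK peaks were recurrent in 14.2% to 25.7% of cases. By male the means were 9.05% and 19.4%, a difference of -10.3 points ± 9.06 (SD, n = 4, exact permutation p = 0.25, adjusted p = 0.333). The value was 0.43 points without male 2 and 2.84 points with equally long lists, so the direction depended on male 2 and on list length. With long terminal repeats alone it was -20.4 points. RMER17 names had the highest recurrence of the large groups, 29.5% as a mean over lists and 44.4% for RMER17C2, although RMER17B had 9.15%, all given as a description because the group was chosen after its values were seen. RMER17 copies resemble each other, and how the alignment placed reads that match several copies is not given in the sources used here.

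**Figure D4:**
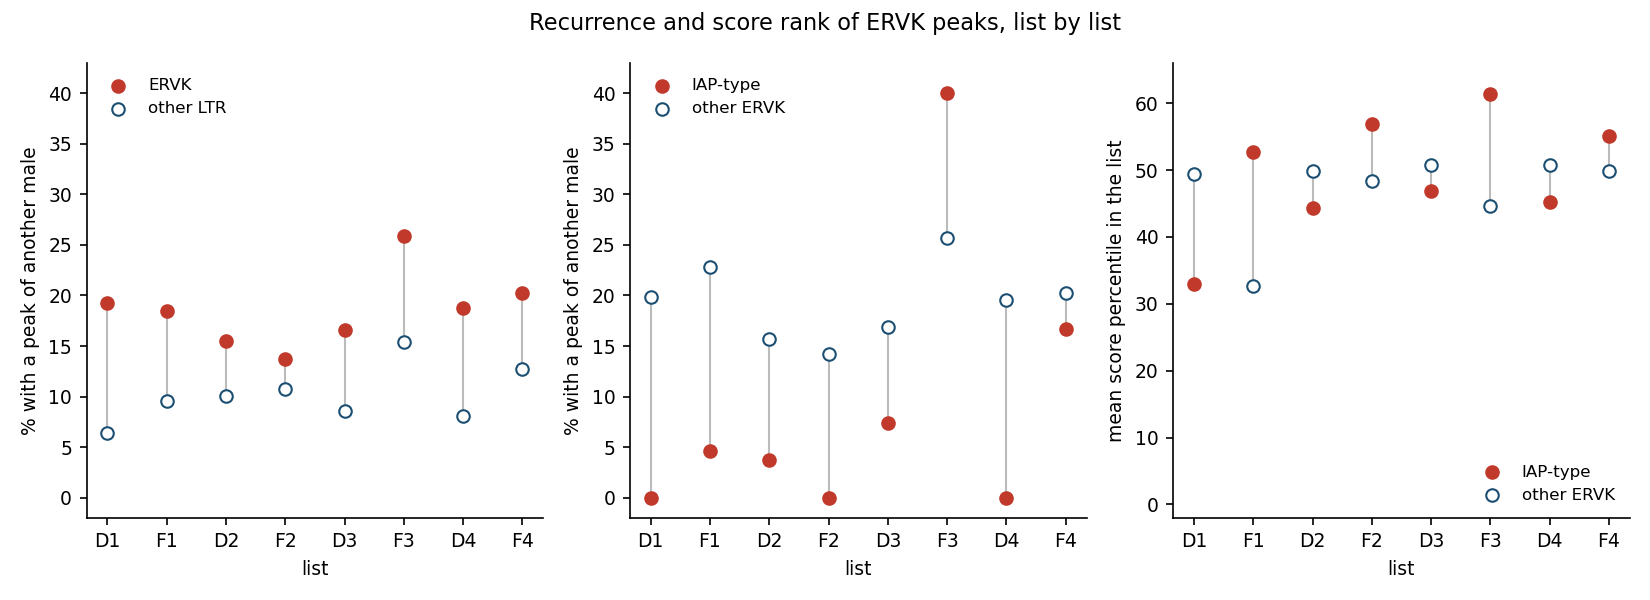
Each pair of points is 1 list. The left plot gives the share of ERVK (filled) and other LTR (open) peaks that overlap a peak of another male, the middle plot the same for IAP-type (filled) and other ERVK (open) peaks, and the right plot the mean score percentile. ERVK lies above other LTR in 8 of 8 lists, IAP-type lies below other ERVK in 7 of 8, and in the right plot IAP-type is lower in the 4 D lists and higher in the 4 F lists.

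ERVK peaks were also more often intergenic than other LTR peaks, with means by male of 70.3% and 66.9% (difference 3.40 points ± 2.71, SD, n = 4, positive in 4 of 4 males, exact permutation p = 0.125, adjusted p = 0.333). With equally long lists it was -0.20 points. The score percentile of ERVK peaks was 47.6 on average and that of other LTR peaks 49.3, a difference of -1.71 ± 2.92 (SD, n = 4, exact permutation p = 0.375, adjusted p = 0.429), or -4.26 with equally long lists.

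ERVK peaks, like annotated D peaks as a whole, were seldom found in both fractions of 1 male. Of the ERVK peaks of D1 to D4, 1.75%, 2.20%, 1.44% and 4.13% shared a base with an F peak of the same male (2 of 114, 63 of 2868, 13 of 904 and 36 of 872). For all annotated D peaks the shares were 4.16%, 2.41%, 1.80% and 3.26%. ERVK was lower in 3 of 4 males, with a mean difference of -0.53 points ± 1.37 (SD, n = 4, exact permutation p = 0.625, adjusted p = 0.625). Without male 1 the difference was 0.10 points, and with equally long lists it was -2.18 points.

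Merged over lists, the ERVK peaks formed 6194 loci, of which 5718 had a peak in 1 list, 420 in 2, 50 in 3 and 6 in 4 or more. No locus (0) had an ERVK peak in all 8 lists. Of the 476 loci in 2 or more lists, 275 had peaks in both fractions, 169 in D lists alone and 32 in F lists alone, and 366 included D2. D lists held 1189.5 ERVK peaks on average and F lists 495, with 2868 in D2 alone. The same split was not counted over all annotated peaks, so it is not read as a trait of ERVK loci. RMER17 names held 310 of the 476 (65.1%) and 39.6% of the loci found in 1 list, while IAP-type names held 5 of the 476. Only 186 of the 6194 loci were IAP-type, so 2.69% of IAP-type loci and 7.84% of the others had a peak in 2 or more lists.

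The most widely shared locus was an RMER6B copy near Eif4enif1 (chr11:3198275-3198675), the gene of a transporter of the cap-binding protein eIF4E. It held 28 tags in D1, 551 in D2, 45 in D3 and 76 in D4, and 61, 54 and 68 in F2, F3 and F4, so F1 alone had no ERVK peak there. Its score percentile was 38.0 in D1 and 79.1 to 99.8 in the other lists. Tags are not scaled between lists, and the score of 1 tag ran from 0.322 in D2 to 2.44 in D3. In deposited scores this RMER6B copy had 177.5 in D2 and 184.6 in D4. An RLTR10 copy near Olfr1274-ps (chr2:90395097-90395353) had ERVK peaks in 6 lists, with 435 tags in D1 and 17 to 35 in F2, D3, F3, D4 and F4. At this position F1 had a peak that the annotation named L1Md_F3, a LINE-1 element.

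An RLTR33 copy in intron 1 of Aida (chr1:183299118-183299517), a gene for an axin-interacting protein, was the highest-scored ERVK peak of D2, F2 and F3. There it held 1177, 104 and 131 tags, with deposited scores of 379.1, 224.1 and 277.7. It held 26 tags in D4 and 121 in F4 and had no peak in D1, F1 or D3. On the Y chromosome, an RMER12C copy (chrY:258995-259394) held 357 tags in D2 and 56, 45 and 163 in F2, F3 and F4. Its deposited scores were 115 in D2 and 120.7, 95.4 and 253.4 in F2, F3 and F4, in another order than the tags. It was the highest-scored ERVK peak of F4. The RMER17C2 copy near Lrrc30 (chr17:67578070-67578469) held 38, 46, 58 and 11 tags in D2, D3, D4 and F4. Its deposited scores there were 12.2, 112.3, 140.9 and 17.1. Outside these loci, the highest ERVK peak of D3 was an RMER17C2 copy in intron 2 of Olfr1396 (152 tags) and that of D4 an RMER17C copy near Eda (94 tags), each seen in 1 list.

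**Figure D5:**
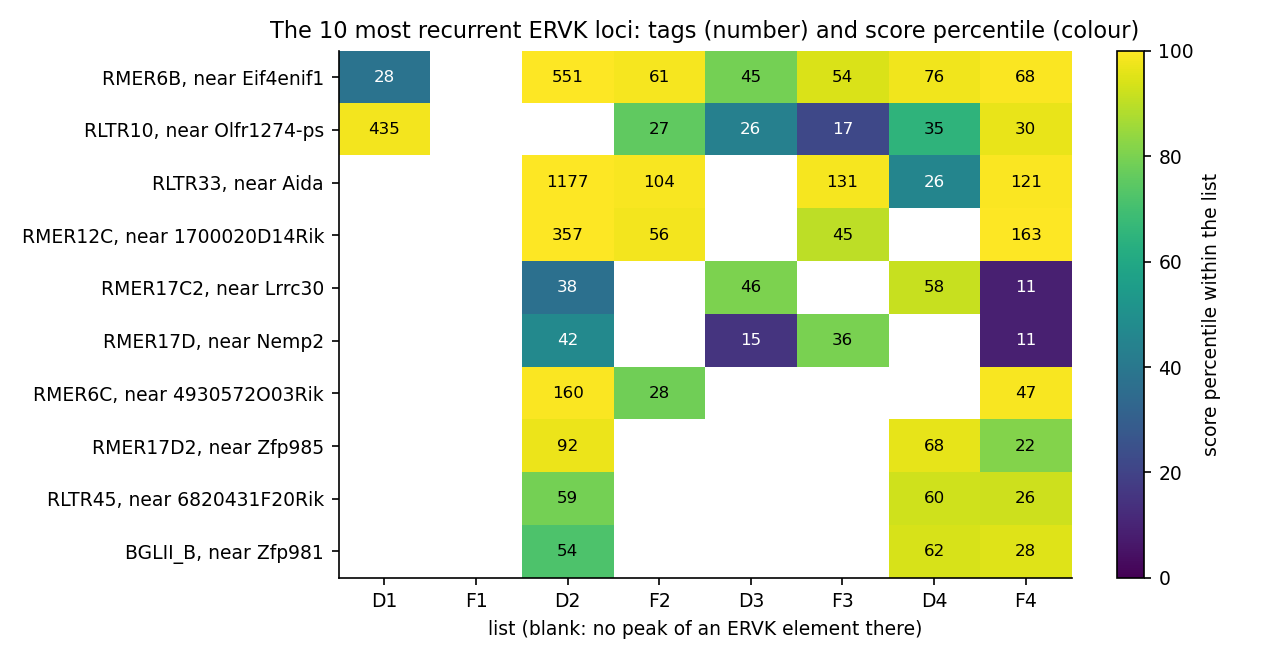
Rows are the 10 ERVK loci with peaks in most lists, named by element and nearest gene, and columns are the 8 lists. Numbers are tags in the peak, not scaled between lists, and colour is the score percentile in its list. The RMER6B copy near Eif4enif1 fills 7 columns and the F1 column is empty.

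5 IAP-type loci had ERVK peaks in 2 lists, and in 4 of them the lists came from different males. Beside the Rnf157 pair, an IAPEz-int copy on chromosome 5 (chr5:143787990-143788389) held 78 tags in D2 and 21 in F4. One on chromosome 3 (chr3:14241032-14241431) held 66 in D2 and 18 in F2 of the same male. Tags are not scaled between lists, and the deposited scores had the opposite order. They were 25.1 in D2 and 32.7 in F4 for the first copy, and 21.3 in D2 and 38.8 in F2 for the second. An IAPEY3-int copy on chromosome 1 (chr1:106803062-106803273) held 45 tags in D3 and 14 in F4.

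Genes that silence or restrict LTR elements were described by their exon and UTR peaks, from a list of 39 genes of which 37 are named in the files. In F1, 11 of 37 had such a peak (29.7%), close to the 28.4% of all named genes. They included Dnmt1 and Dnmt3a, the maintenance and de novo DNA methyltransferases, Trim28 and Setdb1, the corepressor and histone H3 lysine methyltransferase of ERVK heterochromatin, and Atrx and Daxx, which load histone H3.3 there. In F3, 3 of 37 had one (8.11%, against 4.49% of all genes), namely Dnmt1, Dnmt3a and Apobec3, a restriction factor of retroviruses. F2 had 1 (Asz1, of the germline piRNA pathway), D4 had 1 (Dnmt3l, the cofactor of germline DNA methylation), and D1, D2, D3 and F4 had 0. Introns of these genes held 3 ERVK peaks, an RMER17D2 peak in Atrx in F1, an RMER17B peak in Samhd1 in F4 and an RMER17C2 peak in Tdrd9 in D2. The other members had no exon or UTR peak in any list, where a weakly covered transcript cannot be seen.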

How the data were processed

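The authors checked and trimmed the reads of each library, aligned them to GRCm38 with Hisat2, called peaks per library and annotated them. The submitters' processing notes name FastQC, cutadapt, Trimmomatic 0.36, Salmon, HOMER 4.9 and mm10. Handling of reads with several matches is not given in the sources used here. The deposited peak score has no stated unit. Within a list, scores under 100 rose in equal steps (tolerance 0.2 tags), so they were read as scaled tags and compared within a list only. The strand of the RNA is not given, and 8 wild-type libraries were not analysed here. No value column was left unused (0).

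ERVK members, names and gene lists were chosen with earlier results of these data known. Named items were the 12 names with the highest mean share, the 10 loci with peaks in most lists, the highest ERVK peak per list and list genes with exon or UTR peaks in most lists. D and F lists with 1 number come from 1 male and were paired. Exact two-sided permutation tests had 16 sign patterns within males, with Benjamini-Hochberg adjustment over 8 tests of fraction or diet and 8 of peak classes, at a threshold of 0.05. Functions were tested on simulated data and against bedtools 2.31.1. Calculations used pandas 2.3.3 and numpy 2.4.6 under Python 3.11.15, with scipy 1.17.1 for intervals. Sequences came from GENCODE M21 transcripts and the RefSeq GRCm38.p6 promoter table, and the 2 peaks present in both were equal. Alternatives were stricter scores, equally long lists, merged neighbours, weighting by score, other bases of shares, ERVK? names, autosomes, wider overlaps, LTR names alone, unpaired tests and each male left out. Leaving out F1 alone and using central 150 bases were chosen after seeing the data.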

Additional observations from a re-analysis of the deposited data

Results flagged for a closer look

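Chance alone sets about 1 in 20 groups of lists apart in this way. The IAP-type share of ERVK peaks in F1, 24.0%, lay far from the other 3 F lists (1.19% to 3.74%), its gap to the next list being 0.888 of the whole range. The internal-part share of F1, 29.6%, stood apart likewise, with a gap of 0.952 of the range. This share includes the IAP-type internal parts and is not a separate result. Among the other ERVK names it was 11.8% in F1, within the 5.29% to 13.5% of the remaining lists.

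The IAP-type share rose from D to F in both ND males and fell in both HFD males, and the mean change of the HFD males lay 13.7 points below that of the ND males (difference -13.7). The internal-part share, which includes the IAP-type internal parts, behaved the same way, with a difference of -11.0 points. Neither difference between diets was tested, and both include F1. Without male 1 they were -3.95 and -4.94 points, with 1 ND male left.

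The score percentile of IAP-type against other ERVK peaks differed between fractions: -7.86 ± 5.82 (SD, n = 4) in D and 12.6 ± 6.94 in F. F exceeded D in each of the 4 males, by 20.5 points ± 11.5 (SD) on average. This comparison was chosen after its values were seen and is a description. IAP-type peaks numbered 3 in D1 and 5 in F3, and the lists ran from 3427 to 49918 peaks. With the same number of highest-scored peaks from every list, an alternative also chosen after seeing the data, the values were -16.4 ± 16.3 in D and -3.22 ± 13.4 in F, a difference of 13.1 points ± 11.6 with F above D in 4 of 4 males, on 1 to 10 IAP-type peaks per list.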

How the results depend on the processing

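Of 193 alternative values, 176 kept direction and side of the threshold, 15 turned direction and 2 passed it. Only the unpaired setting could pass the threshold, since the smallest p was 0.125 or more in every other. The side was thus fixed in advance there, and only the direction is informative. Values are percentage points (percentile points for scores). Without the pairing (no replicate block), exact permutation p fell to 0.0286 for recurrence of ERVK against other LTR peaks (8.36) and for the internal-part share of IAP-type against other ERVK names (70.6), the smallest p that design allows, and no other call changed. Unless another setting is named, ranges below leave out 1 male, or F1, at a time. The ERVK share of annotated peaks, F against D, was 0.12 over introns and intergenic positions, -1.38 without rRNA, satellite, simple and low-complexity repeats, and -1.08 to 0.23 with 1 male left out. HFD against ND it was 0.84 in D when weighted by score and -1.70 to 0.72 with 1 male left out, and in F -0.65 to 3.94. The ERVK share of LTR peaks, F against D, was -6.81 to -0.73. The IAP share was -0.78 to 7.18 for F against D, 0.70 to 1.45 for HFD against ND in D (-0.083 with LTR names alone) and -22.8 to -2.51 in F. The internal-part share was -0.72 to 5.07 for F against D and 66.5 to 74.5 for IAP-type against other names. Equally long lists held 1 to 10 IAP-type peaks each. They gave -11.6 for the ERVK share of LTR peaks, 15.5 for the IAP share and 17.4 for the internal-part share, all F against D. They also gave -32.2 for the IAP share, HFD against ND in F. They gave 5.44 for the IAP-type intergenic share, 3.56 and -4.26 for recurrence and score percentile of ERVK against other LTR peaks and -2.18 for D peaks overlapping F. Long terminal repeats alone gave 0.78 for the IAP share, F against D, -1.87 for HFD against ND in F, and 19.2, -20.4 and 0.054 for intergenic share, recurrence and score percentile of IAP-type against other names. With equally long lists, IAP-type against other ERVK recurrence was 2.84, score percentile -9.79 and the intergenic share of ERVK against other LTR peaks -0.20. With 1 male or F1 left out these were -15.0 to 0.43, -2.18 to 3.24 and 2.14 to 4.45. The remaining ranges were 8.08 to 13.1 for the IAP-type intergenic share, 2.79 to 9.25 for ERVK against other LTR recurrence, -2.80 to -0.84 for their score percentile and -0.99 to 0.10 for D peaks overlapping F. The causes were not tested. Sequence was at hand for 50 ERVK peaks, so the CpG comparison of IAP-type with other names and its alternatives were not run.

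With 4 males no paired p can pass 0.05 and with 2 males per diet none below 0.333 can occur. IAP-type comparisons rest on 3 to 54 peaks per list, and on 1 to 10 with equally long lists. Lists hold peaks past a calling threshold, the lists do not show the reads behind them, and the study's counts of mapped reads were not used here.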
